A study of Mus musculus with 12 samples.

Results

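Transcripts of 10 genes for quinone reduction, heme breakdown, iron storage, epoxide hydrolysis and carbonyl reduction were followed in B16F10 cells, a mouse melanoma cell line. They were chosen by symbol as Nqo1, Hmox1, Blvrb, Ftl1, Fth1, Ephx1, Cbr1, Cbr3, Akr1b8 and Akr1b3. All 10 were among the 24421 symbols counted, and 9 of them were among the 11638 genes tested, with Akr1b3 listed at 0 counts in every library. The 9 genes had at least 4.83 counts per 1000000 (CPM) in each of the 12 libraries, so none was tested only because 1 group was high. CPM here are relative to a library total scaled by TMM, edgeR's correction for library composition.

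Poly(A) RNA was sequenced from 4 groups of 3 independent culture repeats each. Control cells received the vehicle DMSO. DAC (5-aza-2′-deoxycytidine), a cytosine analog that blocks maintenance of DNA methylation, was given at 25 nM for 72 h. SFN (sulforaphane), an isothiocyanate from cruciferous vegetables, was given for 48 h, alone or in the last part of the DAC treatment (DAC+SFN). The SFN dose was 5 µM in the labels of the DAC+SFN samples and 5 nM in the labels of the SFN samples, while the methods of the study give the micromolar dose for both. By the labels, therefore, the dose of SFN also differs where DAC+SFN is set against SFN and in the interaction. All groups are cultures of a single transplantable line, without other cells of a tumor.

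NQO1 reduces quinones by transfer of a pair of electrons and so bypasses the semiquinone radical. Heme oxygenase 1 (Hmox1) opens heme to biliverdin, carbon monoxide and free iron, biliverdin reductases turn biliverdin into bilirubin, and ferritin, built of heavy (Fth1) and light (Ftl1) chains, stores the iron. Carbonyl and aldo-keto reductases convert reactive aldehydes and ketones to alcohols. Several of these genes are known targets of NRF2 (Nfe2l2), a transcription factor held in the cytoplasm by KEAP1. Isothiocyanates react with cysteines of KEAP1, and NRF2 then binds antioxidant response elements together with small MAF proteins.

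Total counts ranged from 15880957 to 27291436 per library, and the 10 most counted genes held 6.03 to 7.0% of each total. The summed level of 7 melanocyte markers was 21417 to 30155 CPM over all libraries. The summed level of 5 leukocyte and macrophage markers was 4.19 to 5.94 CPM in control, 5.38 to 8.49 with DAC, 7.62 to 13.8 with SFN and 10.8 to 16.4 with DAC+SFN. Cd68 and Lyz2 made up almost all of it, whereas Adgre1 had no count and Ptprc and Csf1r had at most 3 counts in any library. The summed level of 4 fibroblast markers ran from 18.2 to 359 CPM and followed the culture repeat, with Col1a1 at 15.6 to 24.1 CPM in repeat 2, 61.5 to 90.3 in repeat 1 and 245 to 356 in repeat 3. Markers of endothelial cells and keratinocytes were below 1 CPM in sum, and red cell markers were listed at 0. The part of the Cd68 and Col1a1 differences in the results was not tested.

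Nqo1, Blvrb, Fth1 and Ephx1 rose with SFN, both against control and on top of DAC, and Nqo1 and Blvrb did so by more than 2-fold. With SFN, 4 of the 9 genes passed an adjusted p of 0.05 and all 4 rose, where 13.9% of all genes tested passed and 8.27% rose. With DAC+SFN against control, 6 of 9 rose, namely these 4 with Hmox1 and Akr1b8, where 31.6% of all genes passed and 17% rose. The 9 genes had a median log2 fold change of 0.39 with SFN, beside 0.0040 over all genes tested, and of 0.74 with DAC+SFN, beside 0.0078. Over 2-fold, Nqo1 and Blvrb were 2 of 9 in each of these comparisons, where 1.08% of all genes rose with SFN and 2.33% with DAC+SFN. The test was edgeR's quasi-likelihood F-test with the culture repeat as a block and Benjamini-Hochberg adjustment over all genes tested.

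**Figure D1:**
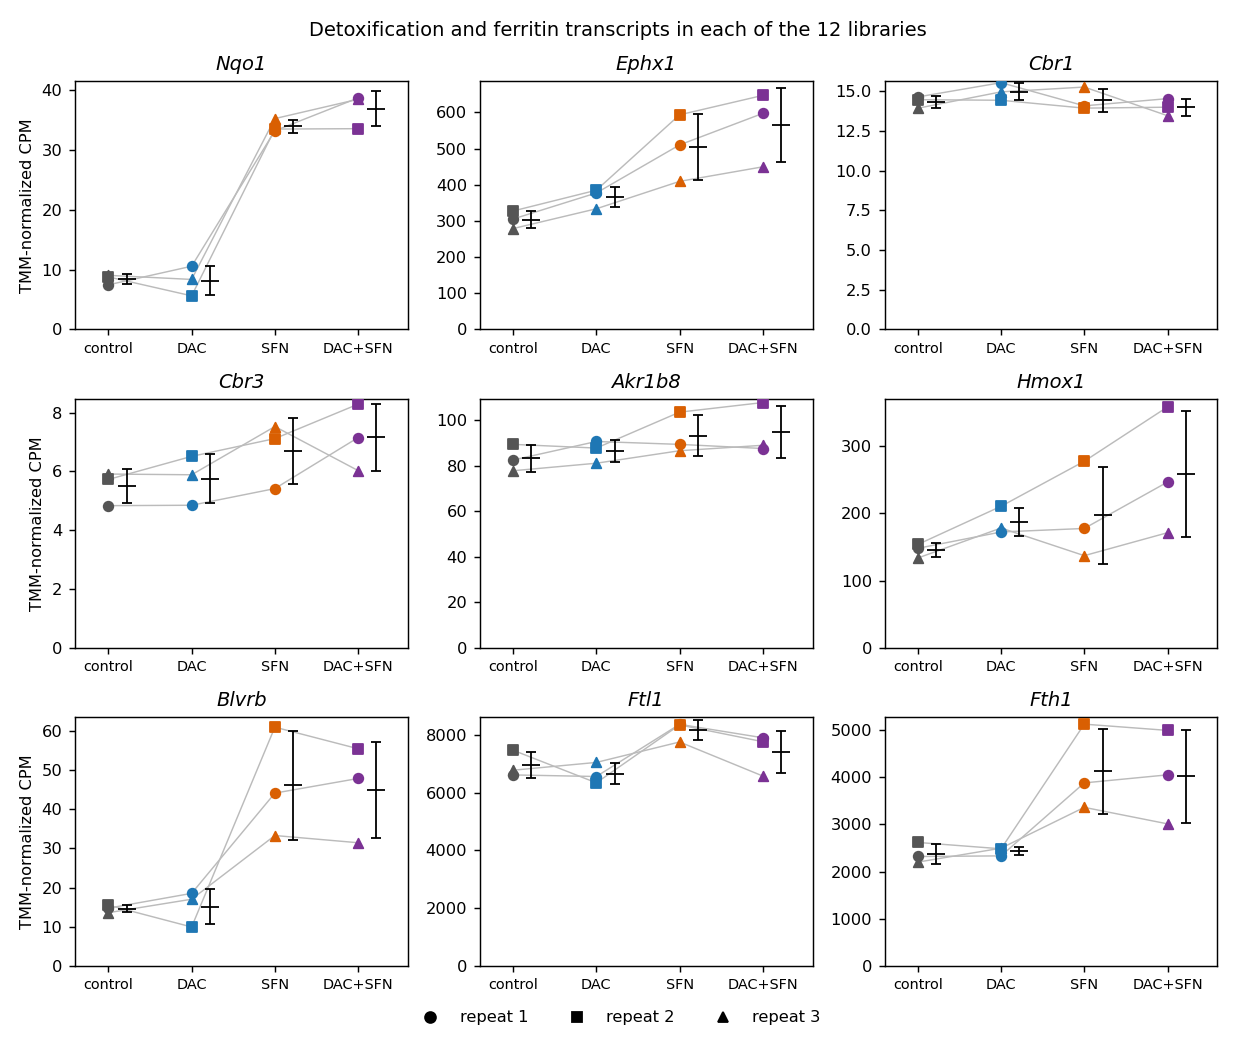
TMM-normalized CPM (linear axes from 0) of the 9 detected genes in the 12 libraries, with symbols for the 3 culture repeats, gray lines joining libraries of 1 repeat and black bars for mean ± SD (n = 3). Nqo1 lay at 33.2 CPM or higher in all 6 libraries with SFN and at 10.6 or lower in the other 6, while repeat 2 (squares) held the highest Hmox1 value in every group.

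Nqo1, the quinone reductase, lies on the minus strand of chromosome 8 (mm10, 107388225 to 107403206). Its levels in repeats 1, 2 and 3 were 7.45, 8.78 and 9.04 CPM in control and 10.6, 5.61 and 8.35 with DAC. They were 33.2, 33.5 and 35.2 CPM in the SFN libraries and 38.6, 33.5 and 38.4 in the DAC+SFN libraries. The libraries with SFN were all above those without it, and the groups with and without DAC overlapped. Nqo1 rose by 2.01 ± 0.14 on the log2 scale (SE), or 4.03-fold, with SFN (adjusted p = 1.16e-06). The difference of DAC+SFN from control was 2.12 ± 0.14 (adjusted p = 3.19e-07), and that of DAC+SFN from DAC was 2.16 ± 0.14 (adjusted p = 6.17e-07). Against control, DAC alone gave -0.03 (95% interval -0.36 to 0.30), and DAC+SFN against SFN gave 0.11 (-0.15 to 0.38). The lowest Nqo1 value, 88 counts, was in the DAC library of repeat 2, the library with the lowest total, and Nqo1 spread more with DAC (coefficient of variation 30.3%) than in control (10.1%), SFN (3.24%) or DAC+SFN (7.86%).

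Blvrb encodes biliverdin reductase B, an NADPH-dependent flavin reductase that also reduces biliverdin IXβ, and lies on the plus strand of chromosome 7 (mm10, 27447978 to 27466144). Its levels in repeats 1, 2 and 3 were 14.7, 15.5 and 13.6 CPM in control and 18.5, 9.89 and 17 with DAC. With SFN they were 44.2, 61.1 and 33.3 CPM and with DAC+SFN 47.9, 55.6 and 31.5. As for Nqo1, every library with SFN was above every library without it, and the lowest value was again the DAC library of repeat 2. Blvrb rose by 1.64 ± 0.21 on the log2 scale with SFN (3.13-fold, adjusted p = 0.000151), by 1.60 ± 0.21 with DAC+SFN against control (adjusted p = 8.17e-05) and by 1.49 ± 0.21 with DAC+SFN against DAC (adjusted p = 0.000436). The ratio of SFN to control differed between the repeats, at 3.0, 3.94 and 2.46 in repeats 1, 2 and 3, whereas that of Nqo1 was 4.45, 3.81 and 3.89.

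Blvrb was also among the 5 tested genes whose log2 CPM profile over the 12 libraries, centred on the control mean, was nearest to that of Nqo1. The root-mean-square difference from Nqo1 was 0.33 for Bcan, 0.45 for Blvrb, 0.51 for Tnnt2, 0.56 for Atp10b and 0.57 for Trim16 (log2 units, no test). Bcan encodes brevican, an extracellular matrix proteoglycan, and Tnnt2 encodes cardiac troponin T. Bcan went from 4.13 to 5.06 CPM in control to 19.3 to 27 with SFN, while Tnnt2 was at most 1.38 CPM in the control libraries. With the mean of each repeat removed first, the nearest were Bcan, Tnnt2, Ptchd1, Blvrb and Hspb7, of which 3 were shared with the first list.

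The 250 bases before the annotated RefSeq starts (GRCm38.p6) of Nqo1 and, for Blvrb, before the first of 2 such starts are shown since these were the genes that rose over 2-fold. They run 5′ to 3′ on the strand of the gene, from chr8:107403206-107403455 (minus strand) and chr7:27447728-27447977 (plus strand), with matches to a GC box (GGGCGG) or a TATA box (TATAAA) on either strand in capitals.
Nqo1: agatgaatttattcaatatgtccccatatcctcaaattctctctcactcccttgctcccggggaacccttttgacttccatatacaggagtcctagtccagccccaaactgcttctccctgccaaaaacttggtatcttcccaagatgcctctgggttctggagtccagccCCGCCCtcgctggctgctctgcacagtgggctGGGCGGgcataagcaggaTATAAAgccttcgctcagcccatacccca
Blvrb: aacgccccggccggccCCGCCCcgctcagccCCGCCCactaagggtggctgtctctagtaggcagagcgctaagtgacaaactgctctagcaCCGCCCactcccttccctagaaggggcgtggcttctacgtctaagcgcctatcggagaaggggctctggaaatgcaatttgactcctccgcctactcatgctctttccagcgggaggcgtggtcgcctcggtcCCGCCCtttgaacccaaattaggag
The window of Nqo1 held 2 GC boxes and a TATA box at position -29 from the start site. The one shown for Blvrb held 4 GC boxes, all on the opposite strand, and no TATAAA, and the window of the second Blvrb start (chr7:27452168-27452417) held neither. Windows were given for 8 of the 10 genes, 10 windows in all. A GC box was in 6 of these 10 windows and in 32.7% of 32851 mouse promoter windows of this length. TATAAA was in 4 of 10 and in 12.4%. Beside that of Nqo1, the matches lay at -214 in Ephx1 and, on the opposite strand, at -159 in Akr1b8 and -124 in a window of Fth1. The core letters of the antioxidant response element, TGACNNNGC searched on both strands, were in 0 of the 10 windows and in 10.2% of all windows, which says nothing of sites outside these 250 bases.

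Hmox1, on the plus strand of chromosome 8 (mm10, 75093621 to 75100589), had the widest difference between culture repeats of the 9 genes on the log2 scale. Its levels in repeats 1, 2 and 3 were 148, 154 and 134 CPM in control and 172, 211 and 178 with DAC. With SFN they were 178, 278 and 137 CPM, and with DAC+SFN 247, 359 and 171. All libraries of DAC and of DAC+SFN were above all control libraries, but SFN overlapped with control through repeat 3. The ratio of SFN to control was 1.2, 1.81 and 1.03 in repeats 1, 2 and 3, and that of DAC+SFN to control was 1.67, 2.33 and 1.28.

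Hmox1 passed the test in DAC+SFN against control, where it rose by 0.78 ± 0.14 on the log2 scale (1.71-fold, adjusted p = 0.000741). The difference was 0.37 ± 0.14 with DAC (adjusted p = 0.371), 0.39 ± 0.14 with SFN (adjusted p = 0.0746) and 0.41 ± 0.14 for DAC+SFN against DAC (adjusted p = 0.0524), none of which passed in this model. For DAC+SFN against SFN it was 0.39 ± 0.14 (adjusted p = 0.147), higher in 3 of 3 repeats, with ratios of 1.39, 1.29 and 1.25. The interaction, the change with SFN in DAC-treated cells minus that in cells without DAC, was 0.02 (95% interval -0.39 to 0.44). Some of these calls depended on the fit. When only the 6 libraries of the compared groups entered the model, the adjusted p of Hmox1 was 0.000114 with DAC, 0.00992 with SFN and 4.45e-05 for DAC+SFN against SFN. With no filter on low counts it was 0.0460 with DAC, 0.00450 with SFN, 0.00290 for DAC+SFN against DAC and 0.0161 for DAC+SFN against SFN. For DAC+SFN against DAC it was 0.0494 with RLE factors in place of TMM and 0.0496 on library totals. Without the 4 libraries of repeat 3, it was 0.00481 with SFN and 0.00164 for DAC+SFN against DAC. Without the block for the repeat, that of DAC+SFN against control was 0.0605.

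Hmox2 and Blvra, other enzymes of these heme steps, were lower with DAC+SFN than in control, where 31.6% of all genes passed in either direction. Hmox2, the constitutive heme oxygenase, and Blvra, the main biliverdin reductase, were chosen here after their values were seen. Hmox2 was 49.9 to 55.1 CPM in control and 41.0 to 45.1 with DAC+SFN, and it fell by 0.30 on the log2 scale (adjusted p = 0.00470). With SFN it fell by 0.23 (adjusted p = 0.0347). Blvra was 39.3 to 42.6 CPM in control and 28.7 to 34.1 with DAC+SFN, where it fell by 0.38 (adjusted p = 0.00274). Its difference with SFN was -0.16 (adjusted p = 0.193). For DAC+SFN against DAC, Hmox2 differed by -0.18 (adjusted p = 0.0891) and Blvra by -0.24 (adjusted p = 0.0536).

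Of the 2 ferritin chains, Fth1 rose with SFN and the values of Ftl1 did not pass the test in the same model. Fth1 lies on the plus strand of chromosome 19 (mm10, 9980598 to 9985098), and its levels in repeats 1, 2 and 3 were 2320, 2619 and 2200 CPM in control and 2333, 2483 and 2496 with DAC. With SFN they were 3884, 5133 and 3364 CPM, and with DAC+SFN 4055, 5000 and 3014. The 6 libraries with SFN were all above the 6 without it, with repeat 2 highest and repeat 3 lowest in both SFN groups. Fth1 rose by 0.78 ± 0.10 on the log2 scale with SFN (1.71-fold, adjusted p = 0.000240), by 0.74 ± 0.10 with DAC+SFN against control (adjusted p = 0.000143) and by 0.69 ± 0.11 with DAC+SFN against DAC (adjusted p = 0.000694). With DAC the difference was 0.05 (95% interval -0.18 to 0.27). Without the block for the repeat, the adjusted p was 0.0828 with SFN and 0.0913 for DAC+SFN against DAC, and without the libraries of repeat 1 it was 0.0681 for the latter.

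Ftl1, on the minus strand of chromosome 7 (mm10, 45457944 to 45459884), had 6614, 7469 and 6777 CPM in control and 6559, 6340 and 7048 with DAC. With SFN it had 8369, 8350 and 7757 CPM, and with DAC+SFN 7903, 7766 and 6576. The SFN libraries were all above control, by 0.23 ± 0.08 on the log2 scale (adjusted p = 0.0601), whereas DAC+SFN overlapped with control (0.09 ± 0.08, adjusted p = 0.394). The call for the SFN difference depended on the fit, as the adjusted p was 0.0111 with no filter on low counts, 0.0212 with DESeq2 and 0.0410 with robust estimation. The values of Ftl1 are uncertain. Of the 75-base windows of its transcript, 67.3% also occur in genes elsewhere in the genome, 6 genes in all led by Ftl1-ps1, and reads aligned to several places had been discarded. For Fth1 this share was 2.32%. Of the exon bases of Ftl1, 34.6% are also overlapped by other genes, Gm22133 on the same strand and Gm10252 on the opposite strand. The part of this overlap in the counts was not tested.

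The ratio of Fth1 to Ftl1 counts, which does not depend on library scaling, was 0.351, 0.351 and 0.325 in control and 0.356, 0.392 and 0.354 with DAC. In the SFN libraries it was 0.464, 0.615 and 0.434, and in the DAC+SFN libraries 0.513, 0.644 and 0.458. Each treated group was above control without overlap, and the SFN groups were also above DAC. The mean ratio was 0.342 ± 0.015 (SD, n = 3) in control, 0.504 ± 0.097 with SFN and 0.538 ± 0.095 with DAC+SFN. This ratio was chosen after the values were seen and is a description with no test, and the limits on reads of Ftl1 apply to it.

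Both ferritin transcripts carry an iron-responsive element in the 5′ untranslated region, the hairpin through which iron-regulatory proteins block ferritin translation in iron-poor cells, a step that RNA counts do not measure. The elements are shown because they are the shared control site of the pair. They lie on mm10 at chr7:45459779-45459806 (minus strand) for Ftl1 and chr19:9982733-9982760 (plus strand) for Fth1, with the CAGTGN loop in capitals.
Ftl1: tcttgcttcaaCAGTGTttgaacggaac
Fth1: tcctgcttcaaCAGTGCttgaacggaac
The pattern searched, an unpaired C followed by 5 bases, the loop and 5 bases that pair with the first 5, was found in 31 of 20597 genes with an annotated 5′ untranslated region (0.151%). Slc40a1 and Alas2 were among the others with this pattern.

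Ephx1, microsomal epoxide hydrolase, which opens epoxides of drugs and aromatic hydrocarbons to diols, lies on the minus strand of chromosome 1 (mm10, 180976210 to 181020904). Its levels in repeats 1, 2 and 3 were 305, 328 and 279 CPM in control and 377, 385 and 334 with DAC. With SFN they were 510, 593 and 409 CPM, and with DAC+SFN 597, 647 and 450. Control, DAC and SFN did not overlap with each other, while SFN and DAC+SFN did, and repeat 2 was highest and repeat 3 lowest in every group. Ephx1 rose by 0.72 ± 0.07 on the log2 scale with SFN (1.64-fold, adjusted p = 1.69e-05), by 0.88 ± 0.07 with DAC+SFN against control (adjusted p = 1.48e-06) and by 0.61 ± 0.07 with DAC+SFN against DAC (adjusted p = 7.22e-05). Without the block for the repeat, the first and the last of these had an adjusted p of 0.0670 and 0.0881.

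With DAC alone, Ephx1 differed from control by 0.27 ± 0.07 on the log2 scale (adjusted p = 0.156), with ratios of 1.24, 1.18 and 1.2 in the 3 repeats. This call depended on the fit, as the adjusted p was 0.0361 with DESeq2, 0.0258 with no filter on low counts and 0.000221 with only the libraries of the 2 groups. DAC+SFN differed from SFN by 0.16 ± 0.07 (adjusted p = 0.22), and with only the libraries of those groups the adjusted p was 0.0261. The gene shares 3.69% of its exon bases with Gm36961 on the same strand.

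Of the carbonyl and aldo-keto reductases, Akr1b8 passed the test in 1 comparison and Cbr1 and Cbr3 in none. Akr1b8, an aldo-keto reductase of the aldose reductase family on the plus strand of chromosome 6 (mm10, 34354119 to 34368463), had 82.5, 89.4 and 77.8 CPM in control and 90.6, 87.7 and 81.1 with DAC. With SFN it had 89.4, 104 and 86.6 CPM, and with DAC+SFN 87.5, 108 and 89.0. DAC+SFN overlapped with control but was higher in 3 of 3 repeats, and Akr1b8 rose by 0.18 ± 0.06 on the log2 scale (1.14-fold, adjusted p = 0.0369). The call was lost with DESeq2 (0.0519), with no filter on low counts (0.0927), without the block (0.235), with only the libraries of the 2 groups (0.120) and without any 1 of the 3 repeats (0.0658, 0.261 and 0.121 in order). With SFN alone the difference was 0.16 ± 0.06 (adjusted p = 0.104).

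Cbr1, the broad carbonyl reductase on the plus strand of chromosome 16 (mm10, 93605853 to 93610505), was 13.4 to 15.5 CPM in all 12 libraries, and its groups overlapped. Its difference from control was 0.06 (95% interval -0.13 to 0.26) with DAC, 0.01 (-0.18 to 0.20) with SFN and -0.04 (-0.23 to 0.16) with DAC+SFN on the log2 scale. Cbr3, the neighboring carbonyl reductase (chromosome 16, 93683215 to 93690990, plus strand), had 102 to 189 counts per library. These were the fewest of the 9 genes except in the DAC library of repeat 2, where Nqo1 had 88. The levels of Cbr3 in repeats 1, 2 and 3 were 4.83, 5.72 and 5.91 CPM in control and 4.84, 6.51 and 5.88 with DAC. With SFN they were 5.41, 7.11 and 7.52 CPM, and with DAC+SFN 7.15, 8.28 and 6.02. DAC+SFN lay above control without overlap, by 0.39 ± 0.15 on the log2 scale (adjusted p = 0.0609), and the adjusted p was 0.0248 without the libraries of repeat 3. With SFN the difference was 0.28 ± 0.15 (adjusted p = 0.223).

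Akr1b3, aldose reductase itself (chromosome 6, 34302434 to 34317478, minus strand), was listed at 0 counts in all 12 libraries, and no fold change is given. Of the 75-base windows of its transcript, 80.2% also occur in genes elsewhere in the genome. Whether the sequence shared with other genes had a part in this was not tested. Akr1b10, whose transcript shares 0.467% of the windows of Akr1b8, was 51.7 to 59.2 CPM in control and 64.1 to 71.8 with DAC+SFN, where it rose by 0.33 ± 0.06 (adjusted p = 0.000931). The identity of that row is in doubt, since it carries the Entrez identifier also given to Akr1b7, and it is named here by its symbol.

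**Figure D2:**
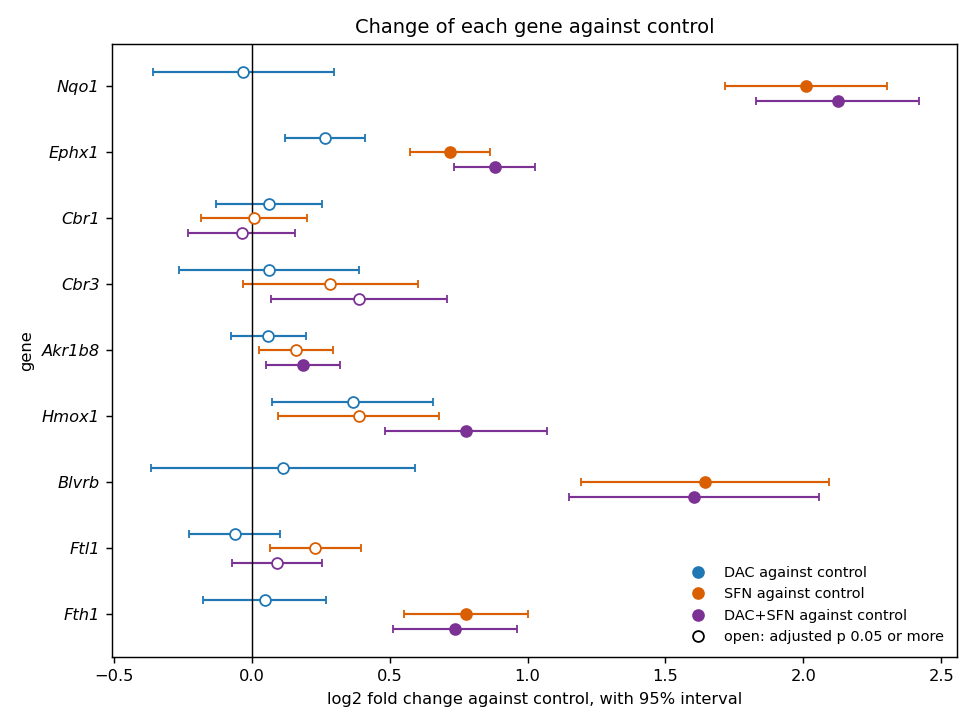
Log2 fold change of the 9 genes against control for DAC, SFN and DAC+SFN with 95% intervals, filled where the adjusted p of edgeR was under 0.05. Nqo1 and Blvrb lie near 2.01 and 1.64 with SFN, Hmox1 is filled for DAC+SFN only (0.78), and no DAC value is filled.

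Per kilobase of the principal transcript, the order of control levels was Ftl1 (7184 CPM per kb), Fth1 (1593), Ephx1 (175), Hmox1 (92.5), Akr1b8 (61.3), Blvrb (14.2), Cbr1 (11.6), Nqo1 (5.42) and Cbr3 (4.69). The spreads of Nqo1 (SD 0.55) and Cbr3 (SD 0.49) overlapped. With SFN, Nqo1 at 21.9 CPM per kb stood above Cbr1 at 11.7 and below Blvrb at 44.9. The order of Blvrb, Cbr1 and Nqo1 depends on the length used. Over all annotated exons their control levels were 5.24, 5.61 and 5.42 CPM per kb. With SFN, over the same exons, Blvrb at 16.6 CPM per kb stood below Nqo1 at 21.9.

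With DAC alone, 0 of the 9 genes passed the edgeR test, where 0.18% of all genes did. Hmox1 and Ephx1 were the 2 with an unadjusted p under 0.05. DESeq2 called 1 of them, Ephx1. For DAC+SFN against SFN, 0 of 9 passed, where 1.61% of all genes did, with the same 2 genes at an unadjusted p under 0.05 and none called by DESeq2. On top of DAC, SFN raised 4 of 9, where 16.1% of all genes passed in either direction, and 2 of 9 over 2-fold, where 0.73% of all genes rose so far.

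The interaction addresses whether DAC altered the response to SFN. It was called in 0 of the 9 genes and in 0% of all genes by edgeR, with 0 of the 9 and 683 of the 11638 at an unadjusted p under 0.05, and in none by DESeq2. The interval of the interaction was -0.27 to 0.56 for Nqo1, -0.78 to 0.48 for Blvrb, -0.31 to 0.10 for Ephx1 and -0.40 to 0.23 for Fth1 on the log2 scale. Values within these intervals were not excluded.

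**Figure D3:**
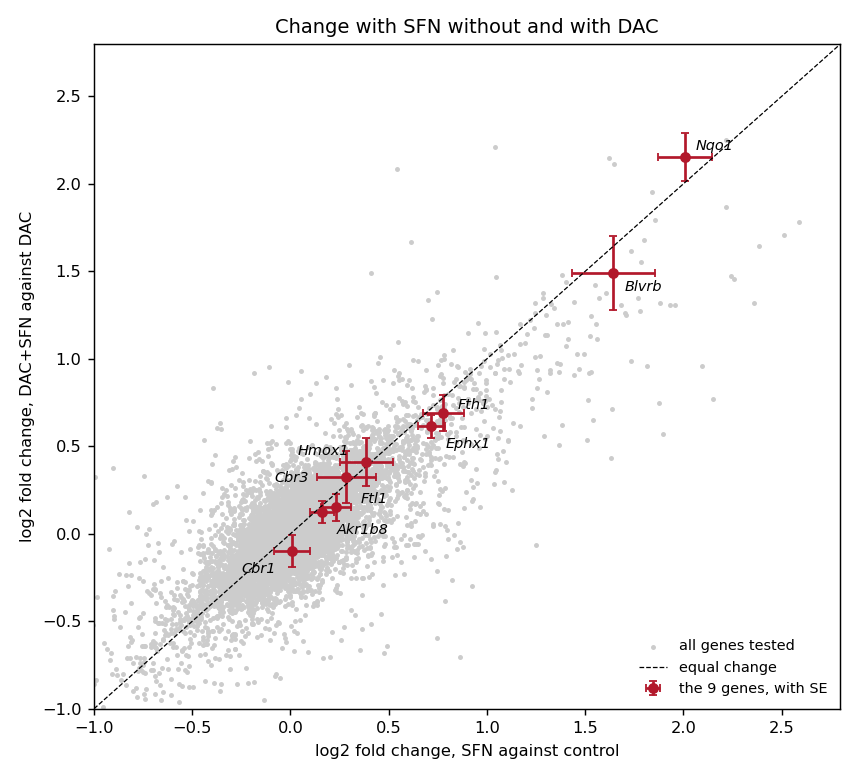
Log2 fold change with SFN in cells without DAC (SFN against control, horizontal) and with DAC (DAC+SFN against DAC, vertical) for the 9 genes with SE bars over all genes tested in gray, with axes limited to -1 to 2.8, outside which 48 of the 11638 genes lie. Nqo1 (2.01 and 2.16) and Blvrb (1.64 and 1.49) lie at the upper right near the line of equal change, and Cbr1 lies near 0 on both axes.

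The culture repeat itself was tested in the same model. It differed in Ephx1 (adjusted p = 0.000786), Hmox1 (0.00270), Fth1 (0.0108) and Akr1b8 (0.0178), 4 of the 9 genes, where 33.9% of all genes passed. Hmox1 averaged 186, 250 and 155 CPM over the 4 groups of repeats 1, 2 and 3, and Fth1 averaged 3148, 3809 and 2769. Nqo1 averaged 22.5, 20.3 and 22.8 CPM (adjusted p = 0.379). The ratio of SFN to control and that of DAC+SFN to control were both highest in repeat 2 and lowest in repeat 3 for Hmox1, Blvrb, Fth1 and Ephx1, and highest in repeat 1 and lowest in repeat 2 for Nqo1. The pairs of ratios share the control library of their repeat, and the difference of ratios between repeats was not tested. Col1a1 followed the reverse order, lowest in repeat 2 and highest in repeat 3.

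Among the rest of the quinone and carbonyl reductases, 20 of 31 listed genes were tested, of which 3 rose and 1 fell with SFN and 4 rose and 1 fell with DAC+SFN. These counts stand beside 13.9% of all genes called with SFN and 31.6% with DAC+SFN, so 4 and 5 of 20 are no result about the list. Their median log2 fold change was 0.01 and -0.06. Dcxr, dicarbonyl and L-xylulose reductase, was the only 1 of them past 2-fold. It was 18.7, 31.9 and 21.1 CPM in control and 55.9, 64.5 and 38.2 with DAC+SFN, and rose by 1.16 ± 0.12 on the log2 scale (adjusted p = 1.38e-05). Of the epoxide hydrolases beside Ephx1, 1 of 4 was tested. Lta4h, which hydrolyzes leukotriene A4, was 215 to 240 CPM in control and 155 to 190 with DAC+SFN, and fell by 0.41 (adjusted p = 7.03e-05).

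Of 21 tested genes of heme synthesis, breakdown and transport, 4 rose and 2 fell with SFN, and 7 rose and 5 fell with DAC+SFN, with a median of 0.02 and 0.03 on the log2 scale (13.9% and 31.6% of all genes were called). The 3 with the largest changes called with DAC+SFN were the transporters Slc46a1 (0.60, adjusted p = 0.0256), Slc48a1 (0.49, adjusted p = 0.000281) and Abcg2 (0.45, adjusted p = 0.00644). Slc46a1 chiefly carries folate, Slc48a1 moves heme out of lysosomes and Abcg2 exports porphyrins and drugs. Of 18 tested iron handling genes, 5 rose and 1 fell with SFN and 7 rose and 4 fell with DAC+SFN, with a median of 0.18 and 0.17, beside the same shares of all genes. The largest of these were Slc40a1, the iron exporter ferroportin (0.88, adjusted p = 0.000102), and Steap2, a metalloreductase (0.64, adjusted p = 0.000675). Next was Cp, the ferroxidase ceruloplasmin (0.64, adjusted p = 0.0302). Cp differed from control by 0.71 with DAC alone (adjusted p = 0.209) and by 0.18 with SFN (adjusted p = 0.620). Its DAC+SFN libraries overlapped with control. Slc40a1 was 14.4 to 19.9 CPM in control, 24.6 to 29.4 with SFN and 28.2 to 36.2 with DAC+SFN, without overlap with control. The counts of the heme and iron lists depended on the fit. With 1 library or 1 repeat left out, the 4 related pathway lists together gave 2 to 18 calls with SFN and 17 to 31 with DAC+SFN. Over all genes, the calls with SFN fell from 1619 to 23 without the block for the repeat.

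Of 11 regulators of the antioxidant response element, 2 rose with SFN, and 3 rose and 1 fell with DAC+SFN, with medians of 0.02 and 0.11. Over all genes 13.9% and 31.6% were called, so these counts are near the background. Those that rose with DAC+SFN were Maff (0.78, adjusted p = 0.0359) and Mafk (0.49, adjusted p = 0.00254), small MAF partners of NRF2, and Sqstm1 (0.55, adjusted p = 0.000580), which binds KEAP1. The 1 that fell, named outside the rule, was Nfe2l2, which was 153 to 193 CPM in control and 139 to 149 with DAC+SFN (a fold change of 0.860, adjusted p = 0.0260). Of 20 further NRF2 targets, 15 rose and 0 fell with SFN, and 15 rose and 1 fell with DAC+SFN, with a median of 0.49 in both, where 8.27% and 17% of all genes rose. Those past 2-fold in both were the glutathione transferase Gsta3, the sulfiredoxin Srxn1, the cystine transporter Slc7a11 and the glutamate-cysteine ligase subunit Gclm. Gsta3 went from 0.822 to 1.47 CPM in control to 13 to 27.4 with SFN and rose by 3.94 ± 0.24 (adjusted p = 8.12e-07). Against it, the 2.01 of Nqo1 lay between Gsta3 and Srxn1 (1.25 ± 0.13, adjusted p = 2.09e-05).

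**Figure D4:**
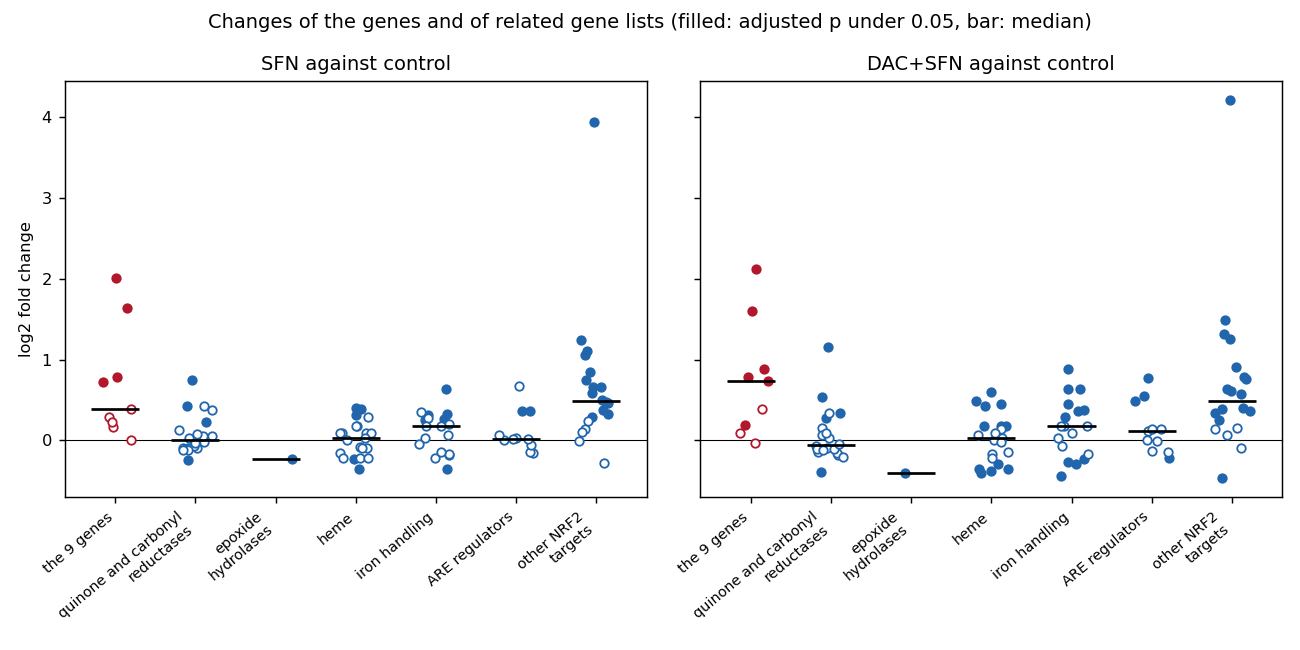
Log2 fold change of the 9 genes (red) and of the related gene lists (blue) with SFN and with DAC+SFN against control, 1 point per tested gene, filled where the adjusted p was under 0.05, with bars for the median. The medians of the 9 genes were 0.39 and 0.74, those of the further NRF2 targets 0.49 in both panels, and those of the heme list 0.02 and 0.03.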

How the data were processed

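The authors sequenced single-end 75-base reads, used Trimmomatic 0.38 for trimming and TopHat 2.1.1 for alignment to mm10, discarded reads aligned to several places and deposited raw counts per gene. Counting used htseq, and its annotation and strand setting are not given in the sources used here. Genes that reached 1 CPM in 3 or more of the 12 libraries were tested on these counts with edgeR 4.0.16 (TMM, legacy quasi-likelihood fit, two-sided, R 4.3.3), all libraries in 1 model with the replicate number, called the repeat here, as a block. DESeq2 1.42.0 was an alternative. SE is the log2 fold change over the square root of F. The replicate numbers were taken to pair the samples. Deviations from group means correlated in every one of 18 same-number pairs (mean r 0.54, lowest 0.27). In 36 other pairs r averaged -0.27 and reached 0.28, above the lowest same-number value. Deviations within a group cancel out, so positive same-number pairs force the other pairs to be negative on average. The mean of the other pairs is therefore no separate evidence. A batch that followed the library numbers cannot be told apart from the repeat. No replicates were duplicates of each other (chi-square per gene between 13.6 and 37.5). Interval and p-value cover the spread that remains between libraries after group and repeat are fitted. The difference in level between the 3 culture repeats is taken out by the block.

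The members and gene lists were chosen with earlier results of these data known. Named list genes are those called over 2-fold, at most 6 per list, or else the 3 largest called with DAC+SFN. Gene positions and transcripts are from GENCODE M21. The script was tested on simulated data.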

Additional observations from a re-analysis of the deposited data

How the results depend on the processing

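The rises of Nqo1 and Blvrb with SFN, with DAC+SFN against control and with DAC+SFN against DAC were called under every alternative run, 1 library or 1 repeat left out included. The highest adjusted p of Blvrb in these runs was 0.0329 with SFN and 0.0496 for DAC+SFN against DAC, close to 0.05. That of Nqo1 was 0.000554 and 0.000262 in the same order. Fits without 1 whole repeat were added after the data were seen.

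Without the replicate block, though the numbers pair the samples, 2 of the 9 genes were called with SFN and 2 for DAC+SFN against DAC, and 0, 14 and 0 of the 60 tested genes of the 4 related pathway lists with SFN, DAC+SFN and DAC+SFN against DAC, in place of 17, 29 and 18. Over all 11638 genes, the calls without the block were 0, 23, 1201, 20 and 0 with DAC, SFN, DAC+SFN, DAC+SFN against DAC and DAC+SFN against SFN, in place of 21, 1619, 3683, 1879 and 187. Those with DAC were 169 with no filter (17403 genes tested), 83 with DESeq2, 45 on library totals and 33 with the version 4 fit, and those for DAC+SFN against SFN were 486 with no filter and 404 with DESeq2. The interaction had 1 with no filter. With a fold over 2 also required, 2 of the 9 genes were called in each of those 3 comparisons, and 0, 1 and 0 of the 60. With DAC alone, where edgeR called 0 and 0, the 9 genes and the 60 gave 2 and 2 with no filter, 1 and 1 with DESeq2, 2 and 3 with only the libraries of the groups compared, and 0 and 1 on library totals. For DAC+SFN against SFN they gave 1 and 2 with no filter, 0 and 2 with DESeq2 and 2 and 8 with only the groups compared, which for DAC+SFN against DAC called 7 of the 60. The difference of Cbr1 with SFN turned to -0.000572 on library totals and -0.000346 with no filter. The cause was not tested.

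With 1 library or 1 repeat left out, the 60 genes gave 0 to 1 calls with DAC, 2 (without repeat 2) to 18 with SFN (6 without repeat 1, 7 without control repeat 2 or SFN repeat 2, and 11 without SFN repeat 3), 17 (without repeat 2) to 31 with DAC+SFN (19 without repeat 1 or control repeat 2), 3 (without repeat 1) to 24 for DAC+SFN against DAC (9 without repeat 2 or DAC+SFN repeat 1, and 11 without DAC repeat 2) and 0 to 4 (without DAC+SFN repeat 3) for DAC+SFN against SFN. The 9 genes gave 0 with DAC, 4 to 5, 5 to 6, 3 (without repeat 1) to 6 and 0 to 1 (without DAC+SFN repeat 3) in the same order, and 0 for the interaction. Log2 differences that were not called and changed sign were those with DAC of Nqo1 (-0.34 to 0.20), Akr1b8 (-0.0051 to 0.12), Blvrb (-0.17 to 0.45), Ftl1 (-0.15 to 0.026) and Fth1 (-0.11 to 0.16), and that of Cbr1 with SFN (-0.064 to 0.047). For DAC+SFN against SFN they were Cbr1 (-0.088 to 0.023), Cbr3 (-0.040 to 0.30), Akr1b8 (-0.025 to 0.076), Blvrb (-0.18 to 0.19) and Fth1 (-0.13 to 0.082). The interaction changed sign for Nqo1 (-0.029 to 0.40), Hmox1 (-0.12 to 0.19), Cbr3 (-0.13 to 0.21), Akr1b8 (-0.099 to 0.030), Blvrb (-0.48 to 0.12), Ftl1 (-0.18 to 0.034) and Fth1 (-0.20 to 0.065). Single libraries changed these calls of edgeR. Akr1b8 with DAC+SFN was lost without any 1 control library or without DAC+SFN repeat 2 or 3 (adjusted p = 0.0751 to 0.205). Hmox1 was gained with SFN without control repeat 3 (0.0484), for DAC+SFN against DAC without DAC repeat 3 (0.0118) or DAC+SFN repeat 3 (0.00540), and for DAC+SFN against SFN without DAC+SFN repeat 3 (0.0212). Cbr3 was gained without DAC+SFN repeat 3 against control (0.0105) and against DAC (0.0327), and Ftl1 for DAC+SFN against DAC without all of repeat 3 (0.0354). Of the 5 genes nearest to Nqo1 in profile, 3 were shared when repeat means were removed. Depth limits Cbr3 and Nqo1 most, with 102 and 88 counts in their lowest libraries.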
